A study of Mus musculus with 24 samples.

Results

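The comparison set liver transcript levels at ZT15 against those at ZT12. It used 6 of the 24 arrays of a series that sampled the day every 3 h at 8 times: the 3 arrays labelled ZT12 and the 3 labelled ZT15. Zeitgeber time counts hours from lights on, and ZT12 is lights off where light and dark are of equal length. ZT15 then lies 3 h into the dark phase, when mice, which are nocturnal, usually take most of their food. The hours of light are not stated in the labels, and food intake was not analysed here. All groups were male mice of 13 weeks, of the strain written C56bl/6J in the labels, with chow offered without restriction. No mutation or treatment is named, so both groups share everything that is labelled except the hour. Total liver RNA was extracted with a Nucleospin kit, and 300 ng of it was labelled with biotin for a whole-transcript Affymetrix array. Arrays of a group are numbered 1 to 3. Nothing in the labels ties the 3 numbers to different mice, so the p-values rest on the variation among these samples, which may be technical.

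In liver, the hours around dusk carry several programmes at once. The circadian clock is a feedback loop in which the activators BMAL1 (gene Arntl) and CLOCK or NPAS2 bind E-box sequences and drive the genes of their own repressors, the PER and CRY proteins, together with Nr1d1, Nr1d2, Dbp and many metabolic genes. Feeding adds signals from insulin, amino acids and body temperature, which act on glycogen, lipid synthesis and the making of ribosomes. Gluconeogenesis and fatty acid oxidation are the typical programmes of the fasting phase that precedes it.

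Levels are log2 values, and a gene's level is the mean of its probe sets. The median of all probe sets was 6.45 to 6.49 on the 6 arrays, and each correlated with the other 23 arrays of the series at a mean of 0.9829 to 0.9855 over genes. No array of ZT12 or ZT15 stood apart by these measures, but single arrays differed strongly for some genes. ZT12 replicate 1 differed from the other ZT12 arrays in several clock and fasting genes. Dbp read 11.76 there against 8.80 and 8.90, and Cyp4a14, a fatty acid hydroxylase, read 15.84 against 6.22 and 7.88. ZT15 replicate 3 stood high in Egr1 and Fos, and ZT15 replicate 2 in Saa2. The liver label fitted the markers: all 13 measured hepatocyte markers lay above background, the 95th percentile of 1101 olfactory receptor genes (6.17), and their mean level was 16.51 to 16.64 at ZT12 and 16.40 to 16.64 at ZT15. Albumin (Alb) was at 19.38 and 19.39, close to the top of the scale at 19.93, where differences can no longer be seen.

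No gene passed the test between ZT12 and ZT15. With limma's moderated test and Benjamini-Hochberg adjustment over all 23152 genes, 0 genes (0%) had an adjusted p below 0.05, and the smallest adjusted p was 0.188. At an unadjusted p below 0.05 there were 1180 genes (5.10%), 560 of them higher at ZT15 (2.42%) and 620 lower (2.68%). The 3 ZT15 arrays lay above all 3 ZT12 arrays for 1285 genes (5.55%) and below them for 1268 (5.48%). By both measures, shares of about this size arise without any difference between the groups. The precision sets what could be seen: the median standard error of a difference was 0.22 on the log2 scale, and the median 95% interval reached 0.47 to either side. Differences were nevertheless large for some genes, with 186 estimates above 1 log2 unit in size and 13 above 2. All directions and sizes that follow are estimates that did not pass the adjusted test, and the counts of list members are to be read against these percentages of all genes.

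The estimates were uneven between bright and dim genes. Among the 10289 genes above background, 573 (5.57%) had an unadjusted p below 0.05, and 142 were higher (1.38%) and 431 lower (4.19%). In the 12863 dimmer genes the order was the opposite, with 418 higher (3.25%) and 189 lower (1.47%). Non-overlapping groups showed the same split above background, with 377 genes higher (3.66%) and 835 lower (8.12%). The share of higher genes among those at unadjusted p below 0.05 was 47.5% in all, and it depended on scaling and on how a gene was summarised. It was 27.9% when each array was centred on its median, 24.1% over genes above background alone, and 58.8% with the brightest probe set of each gene.

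The leading genes had the smallest p-values in each direction among named genes above background at ZT12 or ZT15 whose groups did not overlap. The lack of overlap was thus set by the choice. The 6 that were lower at ZT15 were the brighter ones at ZT12, and Pfkfb3 had the largest difference of them. Pfkfb3 encodes an enzyme that sets the level of an allosteric activator of glycolysis (chromosome 2, 11471430 to 11554071 in the mm10 family build GRCm38.p6). It read 9.09, 7.96 and 8.61 at ZT12 and 7.53, 5.79 and 5.64 at ZT15. All 3 ZT15 arrays lay below all 3 ZT12 arrays, with replicate 1 the highest at both times, and 1 of its 18 probe sets was higher at ZT15. The difference was -2.24 ± 0.44 (SE; limma, adjusted p = 0.188), which is 0.212 times the ZT12 level. The ZT15 values of replicates 2 and 3 lay below background. Without ZT15 replicate 1, Pfkfb3 was the 1 gene that passed, at -2.84 (adjusted p = 0.0163). The means were 9.52 at ZT9 and 6.00 at ZT18, so the ZT12 arrays lay near the day's upper levels and the ZT15 arrays near the lower ones.

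Arhgap32, a GTPase-activating protein, read 9.17, 8.64 and 8.67 at ZT12 and 7.81, 6.96 and 7.57 at ZT15. The difference was -1.38 ± 0.27 (SE; limma, adjusted p = 0.188). Abhd17b, a depalmitoylating enzyme, read 11.61, 11.32 and 11.63 at ZT12 and 9.99, 10.38 and 9.38 at ZT15, a difference of -1.61 ± 0.35. Rpp38 is a protein subunit of ribonuclease P and of the related MRP enzyme that processes ribosomal RNA, and it differed by -1.32 ± 0.29. Zfp609, a zinc finger protein, differed by -0.97 ± 0.20, and Phf8, a histone demethylase, by -1.45 ± 0.32. The adjusted p-values of these 4 were 0.362 to 0.502. For Phf8 the brightest of its 26 probe sets gave the opposite sign, at 1.25.

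The 6 leading genes in the other direction were dimmer at ZT12. Ift43, a part of the intraflagellar transport machinery of cilia (chromosome 12, 86082561 to 86162459), read 6.87, 6.87 and 7.01 at ZT12 and 7.70, 7.57 and 7.60 at ZT15. The 3 arrays of each group lay close together, and 8 of the 9 probe sets were higher at ZT15. The difference was 0.71 ± 0.13 (SE; limma, adjusted p = 0.188), and the brightest probe set alone gave 0.02. Tsfm, a mitochondrial translation elongation factor, read 7.64, 7.83 and 7.67 at ZT12 and 8.54, 8.52 and 8.42 at ZT15, a difference of 0.77 ± 0.20. Ccdc22, which takes part in endosomal sorting, had 1 probe set and differed by 1.66 ± 0.39. Apol7e and Itpripl2 differed by 0.90 ± 0.27 and 0.79 ± 0.24 over 3 probe sets each. The ZT12 means of Ccdc22 and Itpripl2, 4.63 and 5.80, lay below background, and the ZT15 means, 6.28 and 6.59, above it. Both thus entered the choice only through the ZT15 arrays, where they were high. Ifna1, an interferon alpha gene with 1 probe set, differed by 0.73 ± 0.21, and its near-identical family members may share its probes. The adjusted p-values of these 5 genes were 0.505 to 0.860. Gfod1, named after its values were seen because it tied with Ift43 and Pfkfb3 at an adjusted p of 0.188, differed by 0.92 ± 0.18 but lay below the background level at both times.

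**Figure D1:**
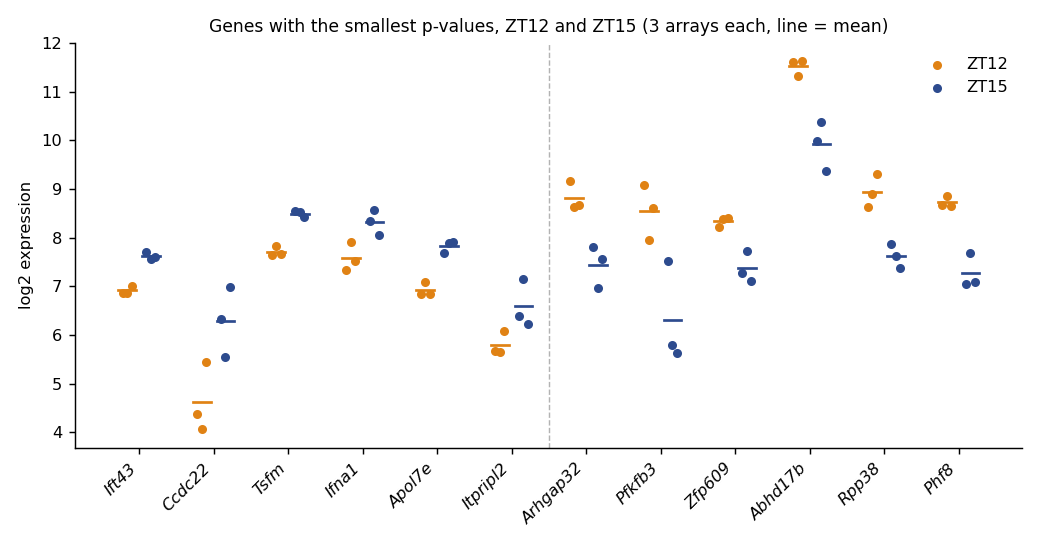
Log2 expression (vertical axis) of the 12 leading genes on the 3 ZT12 arrays (orange) and the 3 ZT15 arrays (blue), with the group mean as a line. The 6 genes left of the dashed line were higher and the 6 right of it lower at ZT15. The genes have the smallest p-values in each direction among named genes whose groups do not overlap, which was a condition of the choice. None passed the adjusted test.

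Clock activators were estimated higher and most of their targets lower at ZT15, but the spread between arrays was as large as the differences. Arntl, which encodes BMAL1, read 7.77, 9.91 and 10.30 at ZT12 and 9.76, 10.41 and 11.18 at ZT15. The groups overlapped, with ZT12 replicate 1 well below the other 5 arrays, and the difference of 1.13 ± 0.74 (SE; limma, adjusted p = 0.967) was 0.35 without that array. Clock, the partner of BMAL1, differed by 0.38 ± 0.40 and Rora, an activator of Arntl, by 0.32 ± 0.16. Npas2, which can replace CLOCK, differed by 0.19 ± 0.54, and Arntl2, a dim paralogue of Arntl, by 0.16 ± 0.21. All 5 estimates were above 0, with a median of 0.32 (0.11 without ZT12 replicate 1), and 0 of the 5 reached an unadjusted p below 0.05. With the brightest probe set Arntl2 turned to -0.58. Npas2 was still low at ZT15, at a mean of 4.94 ± 0.43 (SD, n = 3), and was at 7.99 at ZT18.

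The repressors of the loop were estimated lower in 8 of 10 cases, with a median of -0.60 against 0.01 over all genes, and 0 of the 10 reached an unadjusted p below 0.05. The median was -0.29 without ZT15 replicate 2, -0.38 without ZT12 replicate 1 and -0.95 without ZT15 replicate 1, when 3 members were lower at unadjusted p below 0.05. Ciart, a repressor of BMAL1 and CLOCK, read 8.73, 7.16 and 6.90 at ZT12 and 7.67, 5.80 and 5.91 at ZT15. Replicate 1 was highest at both times, so the groups overlapped although each replicate number showed a difference of -0.99 to -1.36. The difference of means was -1.14 ± 0.59 (SE; limma, adjusted p = 0.953). Nr1d2, which encodes REV-ERB beta, a repressor of Arntl, was the 1 repressor whose groups were apart. It read 12.47, 12.12 and 11.76 at ZT12 and 11.66, 11.16 and 10.49 at ZT15, a difference of -1.01 ± 0.55. Its relative Nr1d1 differed by -0.66 ± 0.82.

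The period genes had different positions in their daily course. Per1 differed by -0.99 ± 0.60, with ZT15 replicate 2 at 7.34 and the other ZT15 arrays at 9.73 and 8.36. Per2 read 10.13, 10.31 and 10.28 at ZT12, a tight group, and 10.65, 9.47 and 9.30 at ZT15. Its difference was -0.43 ± 0.43, with replicate 1 above and replicates 2 and 3 below the ZT12 arrays. Per3 differed by -0.35 ± 0.74, and by 1.01 with the brightest probe set. The repressors of the basic helix-loop-helix family, Bhlhe40 and Bhlhe41, differed by -0.60 ± 0.78 and -0.59 ± 0.41. The means of Bhlhe41, 5.71 at ZT12 and 5.12 at ZT15, lay below background. Cry1, which accumulates late in the cycle, had a positive estimate of 0.57 ± 0.51. Cry2 was nearly level at 0.05 ± 0.35, an estimate of 0.00 when arrays were centred and of -0.06 with the brightest probe set.

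Dbp, the PAR bZIP factor that carries clock timing to liver genes with D-box elements, read 11.76, 8.80 and 8.90 at ZT12 and 9.41, 8.29 and 7.58 at ZT15. ZT12 replicate 1 was the highest array by more than 2 log2 units, and ZT15 replicate 1 lay above the other ZT12 arrays. The difference of -1.39 ± 1.12 (SE; limma, adjusted p = 0.967) became -0.42 without ZT12 replicate 1. Tef and Hlf, its relatives, differed by -0.36 ± 0.35 and -0.22 ± 0.32. Nfil3, a repressor that competes for D-box sites, differed by -0.08 ± 0.40 and turned to 0.67 with the brightest probe set. Among 14 clock output genes of liver, 2 were lower at unadjusted p below 0.05, Alas1 and Gys2, and none was higher. The median of these was -0.50, and -0.09 without ZT12 replicate 1.

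**Figure D2:**
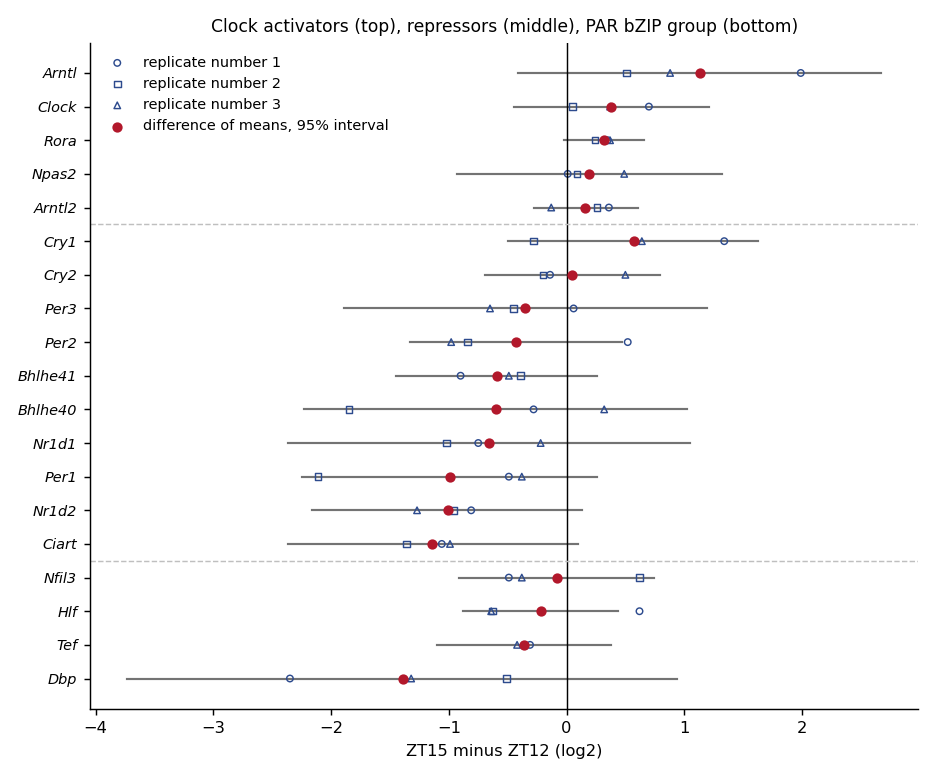
Difference ZT15 minus ZT12 on the log2 scale (horizontal axis) for 19 clock genes. Red points are differences of means with 95% intervals, and open symbols are the differences between arrays of the same replicate number. All 5 activators lie above 0 and 8 of 10 repressors below it, and every interval includes 0.

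The genes of ribosome biogenesis formed the list with most members at a low p, all in 1 direction. These genes make ribosomal RNA, modify and cut it and assemble the subunits in the nucleolus. Of 37 measured members, 33 estimates were lower at ZT15, 14 were lower at unadjusted p below 0.05 (37.8% of the list, against 2.68% of all genes) and 0 were higher. The groups were apart in the lower direction for 17 members (45.9%, against 5.48%). The median difference was -0.40, and no member passed the adjusted test (smallest adjusted p = 0.502). The mean level of the list was 9.09 to 9.51 on the ZT12 arrays and 8.73 to 9.04 on the ZT15 arrays, without overlap. Members share arrays and vary together, so they are not independent of each other, and 36 of 37 were above background, where lower estimates were more frequent (4.19%).

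Ppan, a factor of large-subunit assembly (chromosome 9, 20888175 to 20892179), led the list. It read 7.51, 6.95 and 7.09 at ZT12 and 6.33, 5.82 and 5.91 at ZT15, with the groups apart and 0 of 12 probe sets higher at ZT15. The difference was -1.16 ± 0.26 (SE; limma, adjusted p = 0.502), or 0.446 times the ZT12 level. Between arrays of the same number it was -1.18, -1.13 and -1.19. The ZT15 mean of Ppan, 6.02, lay below background. The genes of the list that follow were chosen after their values were seen, as examples of each step.

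RNA polymerase I and its factors make the ribosomal RNA precursor. Rrn3, the initiation factor that brings polymerase I to its promoter, read 10.60, 10.11 and 10.80 at ZT12 and 9.69, 9.62 and 9.25 at ZT15, a difference of -0.98 ± 0.24 without overlap. The polymerase subunits Polr1a and Polr1b differed by -0.65 ± 0.20 and -0.62 ± 0.20, also with the groups apart. Polr1c at -0.26 ± 0.22 and Polr1e at 0.09 ± 0.21 did not reach an unadjusted p below 0.05, nor did Ubtf, the upstream binding factor, at -0.22 ± 0.21. Whether the subunits of this 1 enzyme differ from each other was not tested.

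Of the proteins that modify ribosomal RNA, those of the box C/D particles were the lower ones. Nop56 read 10.80, 9.91 and 10.44 at ZT12 and 9.90, 9.28 and 9.45 at ZT15, and Nop58 differed by -0.99 ± 0.37 against -0.84 ± 0.29 for Nop56. Fbl, the methyltransferase of these particles, differed by -0.64 ± 0.30 over 2 probe sets. Members of the box H/ACA particles, which make pseudouridine, had estimates near 0 or small ones: 0.08 ± 0.20 for Dkc1, 0.12 ± 0.23 for Nhp2 and -0.35 ± 0.25 for Gar1. The difference between both kinds of particle was not tested.

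In the processing of the precursor, Wdr43 and Utp4, of the small-subunit processome, differed by -0.96 ± 0.30 and -0.63 ± 0.30, and Heatr1 by -0.59 ± 0.24. Nob1, the nuclease that finishes the small-subunit RNA, differed by -0.71 ± 0.29, with ZT15 replicate 2 at 7.76 overlapping the lowest ZT12 array at 7.69. Gnl3, which encodes nucleostemin, read 12.14, 11.29 and 11.86 at ZT12 and 10.94, 10.58 and 10.13 at ZT15, a difference of -1.21 ± 0.33 without overlap. Pes1, Bop1 and Wdr12, which form 1 complex of large-subunit assembly, differed by -0.33 ± 0.20, -0.24 ± 0.19 and -0.18 ± 0.24. The largest estimate in the other direction was that of Npm3, a nucleoplasmin family protein, at 0.68 ± 0.37, with ZT15 replicate 3 inside the ZT12 range.

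The ribosome biogenesis count rested on single arrays more than the median did. It was 7 members without ZT12 replicate 1, 9 without ZT15 replicate 2 and 6 with the brightest probe set, while the median over 20 alternatives ranged from -0.31 to -0.52. Between arrays of the same number the median was -0.49, -0.37 and -0.39, with 34, 32 and 34 of the 37 lower. The 51 measured proteins of the cytosolic ribosome itself had a median of -0.05, with 1 member higher and 1 lower at unadjusted p below 0.05. Rps6, with 1 probe set, was the higher one at 1.11 ± 0.46, and Rpl11, named after its values were seen, the lower one at -0.35 ± 0.17. Of the 22 genes of endoplasmic reticulum folding, 1 was lower, Xbp1, a transcription factor of the unfolded protein response. It read 14.42, 14.47 and 14.67 at ZT12 and 13.74, 13.90 and 13.53 at ZT15, a difference of -0.80 ± 0.25 without overlap.

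**Figure D3:**
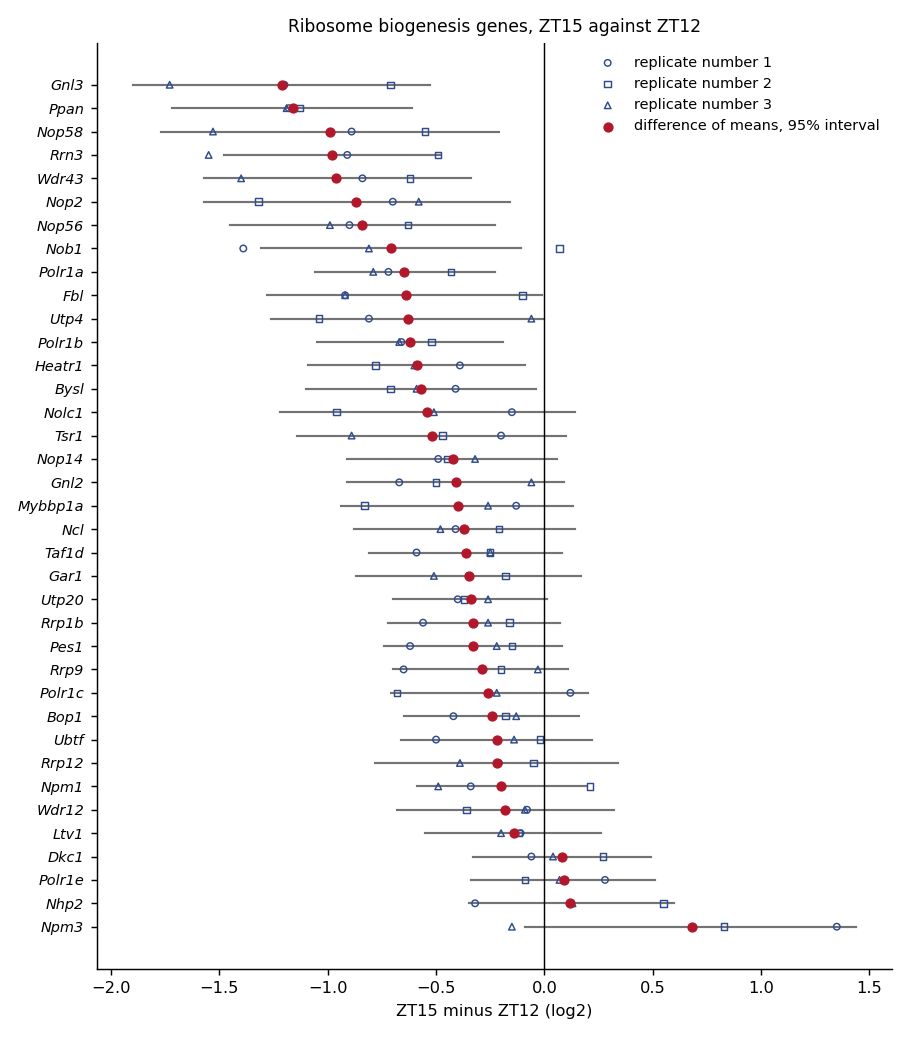
Difference ZT15 minus ZT12 on the log2 scale (horizontal axis) for the 37 ribosome biogenesis genes, with 95% intervals and the differences between arrays of the same replicate number. Estimates lie below 0 for 33 genes, with Gnl3 and Ppan lowest and Npm3 highest.

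Perfect E-boxes are the letters CACGTG, which BMAL1 with CLOCK and also MYC family proteins can bind. They were looked for in RefSeq promoter windows of 250 bases before to 50 after an annotated start of a gene (GRCm38.p6). The sequence is its own reverse complement, so both strands are covered. It was in 1735 of 21488 windows over all genes (8.10%), in 1028 of 10246 windows of genes above background, and in 10.9% and 6.20% of windows of genes lower and higher at unadjusted p below 0.05. Of the windows of ribosome biogenesis genes 9 of 40 held it (22.5%), and of those of clock repressors 4 of 9 (44.4%). The share was 40.0% for the PAR bZIP group (2 of 5) and 0.0% for clock activators (0 of 8). It was 17.6% for cholesterol synthesis, 16.1% for heat shock genes and 14.9% for cytosolic ribosomal proteins, whose median differences were 0.04, 0.01 and -0.05. Some genes have several windows, and no test was made. The stretches below come from clock repressors, from members of the ribosome list with an E-box before the start, and from Pfkfb3 and Onecut1, so that the lower-estimated groups can be seen side by side. For Per1 and Pfkfb3 the start used lies inside the span of the gene, so these E-boxes are not upstream of the whole gene. Capitals mark the E-box, and each reads 5′ to 3′ on the gene's strand.
Ciart (chr3:95882329-95882354, minus strand, 116 bases before the start): catctagagtCACGTGttgccggtaa
Per1 (chr11:69098773-69098798, plus strand, 166 before): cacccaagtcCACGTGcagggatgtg
Cry1 (chr10:85185099-85185124, minus strand, 60 before): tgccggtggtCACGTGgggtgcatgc
Bhlhe41 (chr6:145865558-145865583, minus strand, 153 before): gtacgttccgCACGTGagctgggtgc
Nop2 (chr6:125131813-125131838, plus strand, 60 before): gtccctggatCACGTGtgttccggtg
Rrn3 (chr16:13780474-13780499, plus strand, 215 before): gcgccaaggtCACGTGcacacgcctc
Pfkfb3 (chr2:11502128-11502153, minus strand, 53 before): cccttctctcCACGTGaaagggggct
Onecut1 (chr9:74861679-74861704, plus strand, 232 before): gcgtcccgtgCACGTGctcactgatc

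The 8 genes share the core letters and differ in the bases around them, and their estimates lay on both sides of 0. Cry1 was at 0.57, Onecut1 at -4.40 and Nop2 at -0.87. Ciart held 3 E-boxes in its window and Rrn3 held 2. A match describes the letters and says nothing of binding in these livers.

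Among metabolic genes, the genes with the largest differences were regulators of glucose and lipid handling. Lpin1, a phosphatidate phosphatase of triglyceride synthesis that also acts as a transcriptional coactivator (chromosome 12, 16535669 to 16653903), read 16.87, 15.88 and 14.82 at ZT12 and 14.45, 11.83 and 13.59 at ZT15. The groups were apart, and 0 of its 22 probe sets was higher at ZT15. The difference was -2.57 ± 0.88 (SE; limma, adjusted p = 0.860), or 0.169 times the ZT12 level. Onecut1, the liver transcription factor HNF6, read 13.61, 14.38 and 15.36 at ZT12 and 8.57, 13.72 and 7.85 at ZT15. Here ZT15 replicate 2 stayed within the ZT12 range while the other ZT15 arrays lay at least 5 log2 units lower. It was the 1 member of 13 insulin and feeding induced genes at unadjusted p below 0.05. Its difference of -4.40 ± 1.31 (adjusted p = 0.860) was the largest of all genes in size, and was -6.24 without ZT15 replicate 2.

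Of 21 genes of triglyceride synthesis and lipolysis, 3 were lower at unadjusted p below 0.05 (Lpin1, Mgll and Agpat3) and 0 higher, against 2.68% and 2.42% of all genes. Without ZT15 replicate 2 none was lower, 11 estimates were higher and 10 lower, and the median went from -0.30 to 0.00. Mgll, monoglyceride lipase, differed by -0.90 ± 0.39, and Agpat3, an acyltransferase, by -0.31 ± 0.14. Both were named after their values were seen. Among 19 genes of glycolysis and glycogen the 2 lower ones were Pfkfb3 and Gys2, the liver glycogen synthase. Gys2 read 17.50, 16.71 and 17.00 at ZT12 and 16.53, 15.99 and 16.49 at ZT15, a difference of -0.74 ± 0.31 without overlap.

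Lipogenic genes gave no member at unadjusted p below 0.05 in 17, with a median of -0.14. The array of ZT15 replicate 2 was the low one in several: Thrsp, a lipogenic regulator, read 14.29 there and up to 16.05 on the other ZT15 arrays, and Fasn, fatty acid synthase, read 18.43, 16.83 and 18.12. Scd2, a fatty acid desaturase and the member with the smallest p, was instead high on that array, at 9.19 against 6.90 and 7.85, and differed by 1.03 ± 0.68. Cholesterol synthesis also gave 0 of 17, with a median of 0.04 that was -0.01 on centred arrays, and Hsd17b7 had its smallest p at -0.67 ± 0.38. Insig2, which retains the sterol sensor in the endoplasmic reticulum, was the 1 higher member of 8 genes of sterol control. It read 10.52, 11.22 and 11.68 at ZT12 and 12.02, 11.48 and 13.02 at ZT15, with overlap, and differed by 1.04 ± 0.44.

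In fatty acid oxidation 19 of 24 estimates were lower, with a median of -0.10 and 1 member at unadjusted p below 0.05. Without ZT12 replicate 1 there were 12 higher and 12 lower estimates, a median of 0.00 and no such member. The member was Cpt1a, whose product lets long-chain fatty acids enter mitochondria, at -0.66 ± 0.29. It read 16.18 on ZT12 replicate 1, against 14.69 and 14.65 in the other ZT12 arrays and 14.39 to 14.74 at ZT15, and the difference was -0.16 without that array. Among 23 FOXO1 and fasting targets, Pik3r1, a regulatory subunit of phosphoinositide kinase, differed by -0.64 ± 0.22, and 12 estimates were higher and 11 lower. Pck1, which encodes the gluconeogenic enzyme PEPCK, spread widely at ZT12 (18.97, 16.43 and 15.14) and lay at 17.68 to 18.15 at ZT15, a difference of 1.05 ± 0.70.

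The groups did not overlap for 3 of 19 bile acid genes and 1 of 13 heme genes, all lower at ZT15. That share was 5.48% over all genes and 8.12% over genes above background, where all members of both lists lay. Counts this small say little about the lists. Nr1h4, the bile acid receptor FXR, read 14.34, 14.74 and 14.55 at ZT12 and 14.07, 13.75 and 14.10 at ZT15, a difference of -0.57 ± 0.21 (SE; limma, adjusted p = 0.886). Abcb11, the bile salt export pump and a target of FXR, had all 23 probe sets higher at ZT15 and differed by 0.64 ± 0.26, with ZT12 and ZT15 overlapping. Alas1, the rate-limiting enzyme of heme synthesis, read 15.39, 14.98 and 15.13 at ZT12 and 14.12, 14.05 and 11.63 at ZT15. All ZT15 arrays were below the ZT12 arrays and replicate 3 by most, and the difference was -1.90 ± 0.63 (adjusted p = 0.860). It was -1.08 without that array, and 4 of its 14 probe sets reached the top of the scale. Of 24 genes of drug metabolism none reached an unadjusted p below 0.05, and Cyp3a11 differed by 0.31 ± 0.18.

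**Figure D4:**
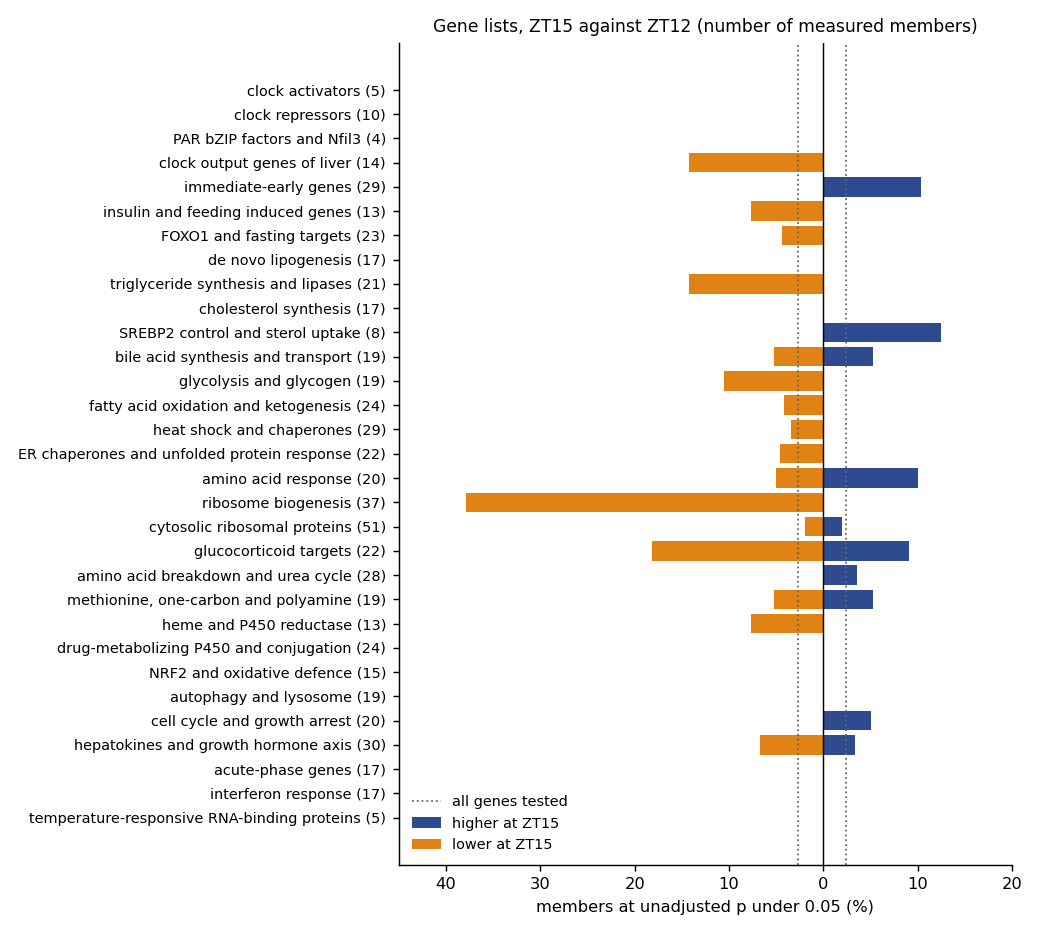
Share of measured members at unadjusted p below 0.05 in 31 gene lists, higher at ZT15 to the right and lower to the left, in percent on a linear axis. Dotted lines mark the shares over all genes, 2.42% higher and 2.68% lower. The bar of ribosome biogenesis, 37.8%, is the longest; lists are small, so 1 gene moves a bar by several percent.

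Genes that respond to hormones and stress differed in both directions. Among 22 glucocorticoid targets, 2 were higher and 4 lower at unadjusted p below 0.05. Ddit4, an inhibitor of the growth kinase mTORC1, read 4.74, 5.66 and 4.82 at ZT12 and 6.67, 5.21 and 7.76 at ZT15. Its ZT12 mean of 5.07 lay below background. ZT15 replicate 2 lay within the ZT12 range and the other ZT15 arrays above it, and the difference was 1.47 ± 0.42 (SE; limma, adjusted p = 0.860). Bcl6, a repressor of growth hormone and lipid genes, read 7.49, 7.21 and 8.87 at ZT12 and 9.92, 8.35 and 11.68 at ZT15. The groups overlapped through ZT12 replicate 3 and ZT15 replicate 2, and the difference was 2.13 ± 0.85. The 4 lower ones were Pik3r1, Klf9, Fkbp5 and Cebpb. Fkbp5, a cochaperone of the glucocorticoid receptor, differed by -0.98 ± 0.39, Klf9 by -0.65 ± 0.24 and Cebpb by -0.60 ± 0.24, each with the groups apart.

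Of 19 genes of methionine, one-carbon and polyamine metabolism, Cth was higher and Srm, spermidine synthase, lower at -0.57 ± 0.26. In the amino acid response, Ddit4 and Cth were higher and Chac1 lower of 20 genes, against 2.42% and 2.68% of all genes. Only 8 of the 20 lay above background, and in the fit limited to such genes 1 was higher and 0 lower. Cth, which makes cysteine, had all 13 probe sets higher and differed by 0.56 ± 0.25, and Chac1, a glutathione-degrading enzyme, differed by -0.75 ± 0.25. Hal, the first enzyme of histidine breakdown, read 14.74, 14.61 and 14.77 at ZT12 and 14.83, 15.75 and 15.94 at ZT15. Its ZT15 replicate 1 lay just above the ZT12 arrays and the other ZT15 arrays more than 0.8 above them, a difference of 0.80 ± 0.32. It was the 1 member of 28 genes of amino acid breakdown at unadjusted p below 0.05. Btg1, an antiproliferative gene, differed by 0.82 ± 0.31 with groups apart, and was the 1 member of 20 genes of cell cycle and growth arrest at unadjusted p below 0.05. Inhba, which encodes a subunit of activin, read 8.39, 9.92 and 10.33 at ZT12 and 8.12, 8.12 and 7.85 at ZT15, a difference of -1.52 ± 0.62 without overlap. With Igfals it was lower, and Bcl6 higher, at unadjusted p below 0.05 among 30 genes of hepatokines and growth hormone.

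Heat shock genes showed little at the step into darkness: of 29 genes 15 estimates were higher and 14 lower, and Fkbp5, also a glucocorticoid target, was the 1 at unadjusted p below 0.05. All 5 temperature-responsive RNA-binding proteins had estimates below 0. Rbm3, a cold-inducible protein, read 13.68, 13.49 and 13.54 at ZT12 and 13.37, 12.81 and 12.67 at ZT15, a difference of -0.62 ± 0.35 (SE; limma, adjusted p = 0.953) without overlap. Lists of interferon response, acute phase, oxidative defence and autophagy, with 17, 17, 15 and 19 measured members, had none at unadjusted p below 0.05. Their leading members were Oas1a at 0.57 ± 0.29, Steap4 at -0.66 ± 0.54, Nqo1 at 0.65 ± 0.38 and Bnip3 at -0.61 ± 0.33. The means of Oas1a, 5.03 at ZT12 and 5.60 at ZT15, lay below background. Steap4 had SDs of 0.22 at ZT12 and 0.05 at ZT15, without overlap of the groups. Its SD at ZT0 was 1.38, and that spread enters the standard error as well.

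Immediate-early genes, which respond within minutes to stimuli and to tissue handling, had 21 of 29 estimates higher. Of these, Ier5, Egr2 and Fosb were at unadjusted p below 0.05 (3 genes, 10.3% of the list). That share was 2.42% over all genes and 3.25% over the dimmer ones. Only 16 of the 29 lay above background, and in the fit limited to such genes 0 were higher at that p. The count was 1 on centred arrays, 0 when each gene was summarised by its median probe set, and 6 without ZT15 replicate 1. Ier5 read 5.68, 5.74 and 5.81 at ZT12 and 6.24, 6.44 and 6.02 at ZT15, a difference of 0.49 ± 0.19 without overlap and near background. The largest estimates rested on 1 array. Egr1 read 5.24, 5.60 and 5.33 at ZT12 and 4.92, 6.70 and 12.82 at ZT15, and Fos 4.22, 4.36 and 4.40 and then 4.49, 4.77 and 9.68. Zfp36, which degrades inflammatory mRNAs, read 11.73 on the same array, ZT15 replicate 3, and 9.02 to 9.57 on the other 5. The same genes were high on 1 array at ZT6, replicate 1, at 12.93 for Egr1 and 11.63 for Fos. Egr1, Fos, Zfp36, Egr2 and Fosb were chosen after their values were seen. Whether handling of these samples had a part in it was not tested.

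**Figure D5:**
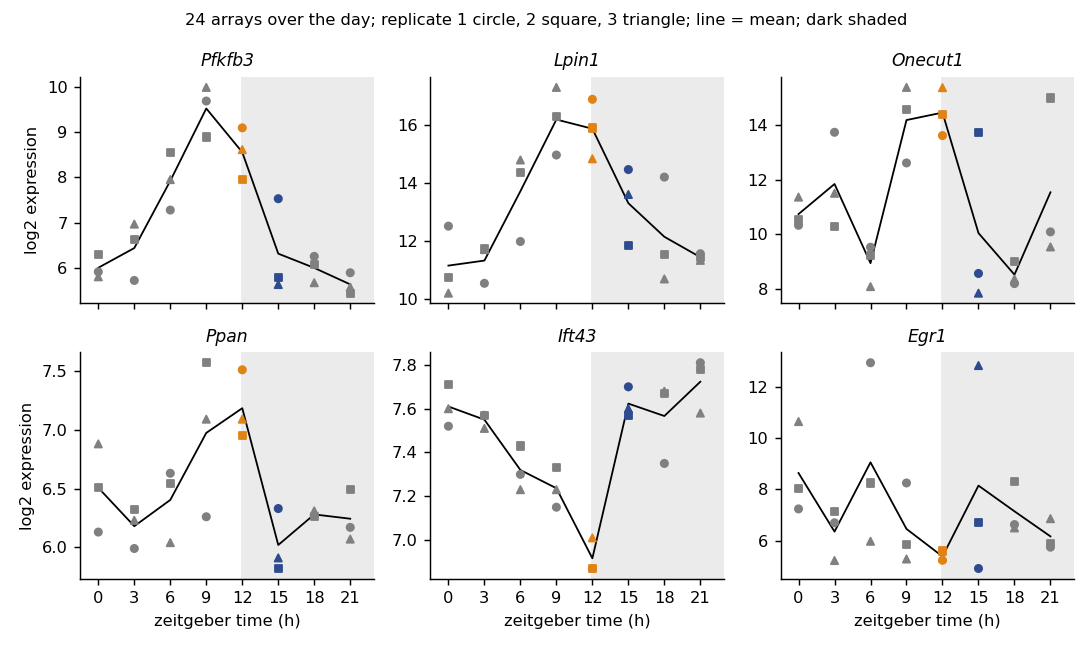
Log2 expression (vertical axes, each with its own range) of 6 genes on all 24 arrays against zeitgeber time, with ZT12 in orange, ZT15 in blue and the mean as a line. Pfkfb3, Lpin1 and Ppan lie lower at ZT15 than at ZT12 on all arrays, Ift43 higher, Onecut1 has 1 high ZT15 array, and Egr1 has 1 high array each at ZT6 and ZT15.

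Markers of other liver cells were measured beside these differences. In bulk RNA, fewer cells of a type and less RNA per cell cannot be told apart. Of 13 Kupffer cell markers 12 estimates were higher at ZT15 and 0 reached an unadjusted p below 0.05, with a median of 0.35 and a mean level of 8.17 to 8.57 at ZT12 and 8.32 to 9.10 at ZT15. ZT0 replicate 1 had a mean level of 11.68 over the Kupffer cell markers, and its spread enters their standard errors. Clec4f, which marks Kupffer cells, read 9.25, 9.77 and 9.99 at ZT12 and 9.87, 10.46 and 10.28 at ZT15, with the groups overlapping. Endothelial markers had 9 of 12 estimates higher and a median of 0.17, and stellate markers 7 of 12 and 0.14. The Kupffer median was 0.57 without ZT15 replicate 1, the endothelial median 0.03 without ZT12 replicate 1, and the stellate median -0.16 without ZT15 replicate 2. Both measured erythroid markers had positive estimates, with a median of 0.14. The 13 hepatocyte markers had a median of 0.01, with Hnf4a, the nuclear receptor of hepatocyte identity, at -0.43 and the 1 member at unadjusted p below 0.05.

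The defining markers of biliary, T, B, neutrophil, pancreatic and fat cells were at or near background: 2 of 7 biliary, 2 of 10 T and NK cell, 1 of 8 B cell, 0 of 12 neutrophil, 1 of 11 pancreatic acinar and 1 of 7 adipocyte markers lay above it. Of these lists, 1 T and NK cell gene, Cd8a, reached an unadjusted p below 0.05, at a level of 4.23 and 4.68. Periportal hepatocyte markers had a median of 0.42 with Hal and Pck1 among them, and pericentral ones a median of -0.10. The part that cell make-up had in the differences above was not tested.

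The step was also set against a smooth daily course. For each gene a cosine with a 24-h period was fitted to the 18 arrays of the other 6 times, and the step it predicts from ZT12 to ZT15 was subtracted. By this measure 0 of 23152 genes passed in limma (smallest adjusted p = 0.999), and 1011 (4.37%) had an unadjusted p below 0.05. Arhgap32 lay beyond its cosine by -1.15 ± 0.26, Ppan by -1.03 ± 0.29 and Ift43 by 0.56 ± 0.13. These genes were chosen by the same ZT12 and ZT15 arrays, so large values here follow in part from that choice. For clock genes the sign often turned: Dbp was 1.08 ± 1.10 above and Arntl -0.91 ± 0.72 below the predicted step.

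Lights on gives a step of the same length, ZT3 minus ZT0, on 6 other arrays. The difference between both steps passed for 0 genes in limma (smallest adjusted p = 0.0901), with 2462 genes (10.6%) at unadjusted p below 0.05. ZT0 replicate 1, which correlated with the other arrays at 0.9678, enters this comparison, and without it 0 genes passed too. Its mean level was 9.79 over neutrophil markers, 11.68 over Kupffer cell markers and 17.78 over acute-phase genes, the highest of all arrays in each. All arrays share the estimate of the spread, so it also widens the standard errors of such genes for ZT15 minus ZT12. Ddit4 had a difference between steps of 3.18 ± 0.60, Alas1 of -3.44 ± 0.89 and Pfkfb3 of -2.67 ± 0.62. These genes too were chosen by the ZT12 and ZT15 arrays, which enter this difference. The means of Ddit4 at ZT0, ZT3 and ZT12, 5.5, 3.8 and 5.07, lay below background. Dbp, lower over lights off and with a wide spread at ZT0 and ZT3, had -4.38 ± 1.59. On the 16 arrays of replicates 2 and 3, a choice made after the data were seen, 10 genes passed. Dbp was then at -6.92 ± 0.44 (adjusted p = 3.347e-05), Arntl at 3.92 ± 0.53, and Ciart, Per3, Tef, Npas2, Gys2 and Pfkfb3 were among the other 8.

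None of the 8 steps between neighbouring times passed for any gene. Their counts at unadjusted p below 0.05 were 893 for ZT18 to ZT21, 1102 for ZT9 to ZT12, 1180 for ZT12 to ZT15, 1407 for ZT15 to ZT18 and 2327 for ZT0 to ZT3. The step into darkness thus lay in the lower part of the range, and the comparison with its neighbours shares arrays with them. Ppan differed by 0.21 from ZT9 to ZT12 and by 0.26 from ZT15 to ZT18, against -1.16 between them. Lpin1 differed by -0.32, -2.57 and -1.16 over these 3 steps, and Pfkfb3 by -0.96, -2.24 and -0.31. Ppan, Lpin1 and Pfkfb3 were chosen by the step from ZT12 to ZT15, so its size beside the neighbours follows in part from that choice. Nr1d2 differed by -0.79, -1.01 and -2.30, and Npas2 by -0.24, 0.19 and 3.05, so that for both the largest of the 3 was the step after ZT15.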

How the data were processed

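The deposited values are log2 expression per probe set, which the authors normalized by a method not given in the sources used here. The submitters' processing notes list limma, Affymetrix Power Tools 2.10.0 and mm10. Of 269479 probe sets, 233753 had 1 gene symbol and were averaged to 23152 genes, after 2189 old symbols were updated from RefSeq. Genes above 6.17, the 95th percentile of olfactory receptor genes, count as above background. Precision is limited by the number of arrays.

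All 24 arrays entered limma 3.58.1 in R 4.3.3, with a mean for each time and empirical Bayes moderation. ZT15 minus ZT12 was tested two-sided, with Benjamini-Hochberg adjustment over all genes at 0.05. The code was tested on simulated data. A rule named the genes: those that passed and, where fewer than 12 did in a direction, up to 6 by smallest p, among genes above background at ZT12 or ZT15 whose groups did not overlap; every measured clock gene; and in each other list the largest changes that passed or the member with the smallest p. Unnamed gene models were counted and not named. Other named genes were chosen after their values were seen. The genes, the 31 pathway lists and the 13 cell type lists were chosen with earlier results of these data known. Alternatives changed the scaling, the filter on dim genes, the probe-set summary, the variance prior, weights, the block and the arrays used.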

Additional observations from a re-analysis of the deposited data

How the results depend on the processing

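Over 21 alternatives the smallest adjusted p for ZT15 minus ZT12 lay between 0.00984 and 0.663, and 1 gene passed in each of 2: Ift43 (adjusted p = 0.00984) with an unmoderated test, and Pfkfb3 (0.0163), also the 1 list member that passed, without ZT15 replicate 1. The range of passing genes with 1 array left out was 0 to 0 higher and 0 to 1 lower, 0 to 1 among list members, and 0 to 2 for the lights-off minus lights-on step. That last count was 10 on the 16 arrays of replicates 2 and 3 (added after the data were seen), 5 over genes above background (Cks2, Mcm10, Nfrkb, P2ry1 and Qtrt2) and 2 without ZT15 replicate 2 (Ddit4 and Mcm10). The step beyond the cosine passed for 0 genes in each alternative run. Each probe set tested on its own gave 0 passing. Genes higher without overlap numbered 4137 on 16 arrays, 856 on centred arrays, 377 above background and 2356 to 2629 with 1 array left out; genes lower without overlap numbered 4179, 835 above background and 2254 to 2752. Fewer arrays separate more easily by construction. At unadjusted p below 0.05, 348 genes were higher on centred arrays and 144 above background when the fit was limited to these.

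Of 1114 values of the 56 named genes under alternatives, 1097 kept their direction and side of the threshold, 2 passed and 15 changed sign. With the brightest probe set these were Arntl2 (-0.58), Cry2 (-0.06), Cyp3a11 (0.00), Nfil3 (0.67), Per3 (1.01) and Phf8 (1.25), and Cry2 was 0.00 on centred arrays. Leaving out 1 array, the range was -1.05 to 0.02 for Bhlhe40, -0.19 to 0.29 for Cry2, -0.64 to 0.04 for Hlf, -0.41 to 0.32 for Nfil3 and -0.04 to 0.39 for Npas2. The sign changed without ZT15 replicate 2 for Bhlhe40 and Hlf, without ZT12 replicate 2 (-0.06) or ZT15 replicate 3 (-0.19) for Cry2, without ZT12 replicate 3 (0.14) or ZT15 replicate 1 (0.32) for Nfil3, and without ZT15 replicate 3 (-0.04) for Npas2. Nfil3 was 0.12 on the 16 arrays. The causes were not tested. With the replicate number as a block, 0 genes passed (smallest adjusted p = 0.204), with 541 higher and 618 lower at unadjusted p below 0.05. Over genes above background, deviations from the time means correlated at 0.09, 0.10 and 0.17 between arrays of the same number. Between arrays of different numbers the correlations were -0.13 to 0.01, so the same-number values all lay above the others. Deviations sum to 0 over the 3 arrays of a time, so positive same-number values push the others below 0 on average. The different-number values are thus not separate information. The main test used no pairs because the labels do not say that a number marks a shared animal or batch. What arrays of the same number share was not tested.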

Other observations

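Some gene groups were carried by ZT15 replicate 2 alone, and these were looked at after their values were seen. Saa2, an acute-phase serum amyloid gene whose probes may also read its near-identical relative, was at 10.80, 15.54 and 11.84 at ZT15 and at 10.45 to 10.95 at ZT12. Top2a, a topoisomerase of dividing cells, read 5.19, 6.69 and 5.19 at ZT15, and Mcm5, a replication licensing factor, 5.50, 6.88 and 5.79, so that the high array was the same one. On the other ZT15 arrays both genes lay below background. The lipogenic genes Thrsp and Pklr were low on it, each at 14.29, against 15.72 to 16.05 on the other ZT15 arrays. Fst, which encodes follistatin, the antagonist of activin, was high there at 9.52 against 7.19 and 7.32. Cdkn1a, a cell cycle inhibitor, did not follow this array: it read 5.46, 5.47 and 5.48 at ZT12 and 6.10, 6.48 and 6.82 at ZT15, a difference of 1.00 ± 0.61 (limma, adjusted p = 0.953) without overlap. Its ZT12 values and that of ZT15 replicate 1 lay below background.

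Pnpla3, a lipid hydrolase of the lipogenic programme, gave the opposite picture at ZT12, with 5.76 on replicate 1 and 10.06 and 10.79 on the others, and 8.27 to 8.82 at ZT15. Rgs16, a regulator of G protein signalling, read 12.02 on ZT12 replicate 1 and 8.47 and 7.78 on the others. The cause of the differences between single arrays was not tested.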
